A study of Homo sapiens with 7 samples.

Results

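KMO encodes kynurenine 3-monooxygenase, and it is described here with 9 other genes of the kynurenine pathway in Panc1, a cell line from a human pancreatic carcinoma, measured on microarrays. The members were KMO, KYNU, IDO1, IDO2, TDO2, HAAO, QPRT, AFMID, KYAT1 and AHR, read at every probe set that the platform annotation gives exactly 1 of these symbols. All 10 genes had such a probe set, and there were 19 in all, of 54613 probe sets and 19775 genes on the array. KMO was picked because earlier results of these data had it among the genes that differed most between the arms. Its values in that comparison are therefore given as a description with no test, and so are those of the other members. Differences between clones within an arm were not used in the choice and were tested.

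The cells were stable Panc1 transfectants grown in DMEM with serum, from which single-cell clones had been isolated. One arm carried pcDNA3.1/S100P-V5-His, a vector that encodes the calcium-binding protein S100P with a V5-His tag, and held 4 arrays, arrays a and b of clone 1 and of clone 5. The other arm carried the same vector without S100P and held 3 arrays, a and b of clone V3 and 1 of clone V1. Each arm therefore rests on 2 clones, each the progeny of 1 transfected cell, and the description label of V1 starts with another prefix than the rest. Values are log2 expression after RMA, which removes background, puts the arrays on 1 scale and combines the probes of each probe set. Nothing in the labels tells if a and b of a clone were grown apart. The p-values therefore cover just the spread among these arrays, some of which may be technical.

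The kynurenine pathway breaks down most dietary tryptophan. IDO1, IDO2 and TDO2 open the indole ring, and AFMID releases kynurenine from the product. KMO, a flavoprotein of the outer mitochondrial membrane, hydroxylates kynurenine, KYNU cleaves kynurenine or its hydroxylated form, and HAAO and QPRT carry the product on to quinolinate and then towards NAD. KYAT1 turns kynurenine into kynurenic acid instead. AHR is a ligand-activated transcription factor to which kynurenine and kynurenic acid can bind.

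Facts of the arrays that touch what follows are these. Array medians lay between 4.51 and 4.59, and the correlation across probe sets was 0.996 to 0.998 within a clone and 0.982 to 0.995 between clones. The S100P probe set did not separate the arms. It read 5.36 to 5.95 on the S100P-labelled arrays and 4.65 to 6.01 on the vector arrays, lowest on V1, so directions rest on the labels. Whether this probe set reads the tagged S100P of the vector is not known, so these values do not tell if the tagged S100P was expressed. The keratins KRT8, KRT18 and KRT19 read 10.59 to 13.68 and EPCAM 8.88 to 9.37. Of 7 macrophage and dendritic cell markers 4 lay below the median of every array, with a list mean of 4.0 to 4.14 on the S100P-labelled and 4.07 to 4.12 on the vector arrays. Markers of hepatocytes, endothelial cells and fibroblasts held 0 members that differed between the arms in the limma fit of arms with the clone as a random block, also with an unadjusted p under 0.05. No detection calls were used, so no probe set can be called absent.

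The starts of KMO, QPRT and OPN3 are shown because these genes carry the patterns below. OPN3 lies next to KMO. Each run is the 250 bases before the first annotated start of the gene in RefSeq (GRCh38.p14), 5′ to 3′ on the strand of the gene, with CG dinucleotides and the letters TATAAA in capitals. The KMO window is chr1:241532128-241532377 on the plus strand, the OPN3 window chr1:241640370-241640619 on the minus strand, and the QPRT window chr16:29678930-29679179 on the plus strand.
KMO: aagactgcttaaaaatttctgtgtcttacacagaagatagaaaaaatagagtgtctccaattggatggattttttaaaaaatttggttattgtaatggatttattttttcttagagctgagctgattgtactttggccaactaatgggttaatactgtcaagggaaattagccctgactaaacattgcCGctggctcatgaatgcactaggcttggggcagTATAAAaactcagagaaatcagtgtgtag
OPN3: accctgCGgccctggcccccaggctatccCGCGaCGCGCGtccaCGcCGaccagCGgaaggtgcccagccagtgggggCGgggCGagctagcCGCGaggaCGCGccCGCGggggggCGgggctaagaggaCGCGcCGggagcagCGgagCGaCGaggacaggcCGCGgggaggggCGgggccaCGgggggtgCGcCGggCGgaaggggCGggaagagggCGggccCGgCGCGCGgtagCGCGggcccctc
QPRT: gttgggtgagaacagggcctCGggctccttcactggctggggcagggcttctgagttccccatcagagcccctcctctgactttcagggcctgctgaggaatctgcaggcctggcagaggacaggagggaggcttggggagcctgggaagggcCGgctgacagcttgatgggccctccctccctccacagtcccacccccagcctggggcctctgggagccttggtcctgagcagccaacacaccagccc

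The KMO window holds 1 CG, and 6.39% of 27305 RefSeq promoters of the same length hold fewer. The OPN3 window holds 39 CG, more than 97.5% of promoters, and the QPRT window 2, more than 15.4%. KMO has TATAAA at position -29 from its start, and 11.1% of promoters hold these letters on either strand. Promoters of 8 of the 10 members were searched on both strands, and 4 of the 8 hold TATAAA. The core of sites bound by AHR, GCGTG, is in 1 of the 8, that of AFMID, and in 31.9% of all promoters. The core of the interferon-stimulated response element is in 0 of the 8 and in 3.07% of all promoters. TTCNNNGAA, a form bound by STAT proteins, is in 1 of the 8, that of KYNU, and in 6.78% of all promoters. Matches are matches of letters and are no evidence of binding.

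KMO RNA was low in both S100P-labelled clones and higher in both vector clones. At its probe set of highest mean (211138_s_at), KMO read 4.19 and 4.45 (clone 1), 3.98 and 4.10 (clone 5), 7.13 and 7.24 (V3) and 6.60 (V1). The arms did not overlap. The S100P-labelled mean was 4.18 ± 0.20 (SD, n = 4) and the vector mean 6.99 ± 0.35 (SD, n = 3), a fitted log2 difference of -2.78 (SE 0.19), or 6.85-fold lower. A second KMO probe set (205306_x_at) read 4.05, 4.11, 3.57 and 3.53 on the S100P-labelled arrays and 7.43, 7.30 and 6.69 on the vector arrays. There the difference was -3.29 (SE 0.22), or 9.77-fold lower. The third (205307_s_at) behaved differently. It read 3.84, 3.64, 3.35 and 3.70 against 3.84, 4.33 and 3.98, all below the median of their array, with overlapping arms and a difference of -0.41 (SE 0.18). On the S100P-labelled arrays the first and second also lay below the array median, so the size of those folds is uncertain. Probe sets of these types, marked s and x, can also read near-identical transcripts. The mean of 5 epithelial markers was 9.86 to 10.51 on the S100P-labelled arrays and 10.49 to 11.06 on the vector arrays. None of the 5 passed (3 at an unadjusted p under 0.05 in limma), with differences of -0.95 to -0.55 for 4 keratins and 0.02 for EPCAM. Their part in the KMO values was not tested. Since each array reads a whole culture, fewer cells with KMO RNA and less KMO RNA per cell cannot be told apart.

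**Figure D1:**
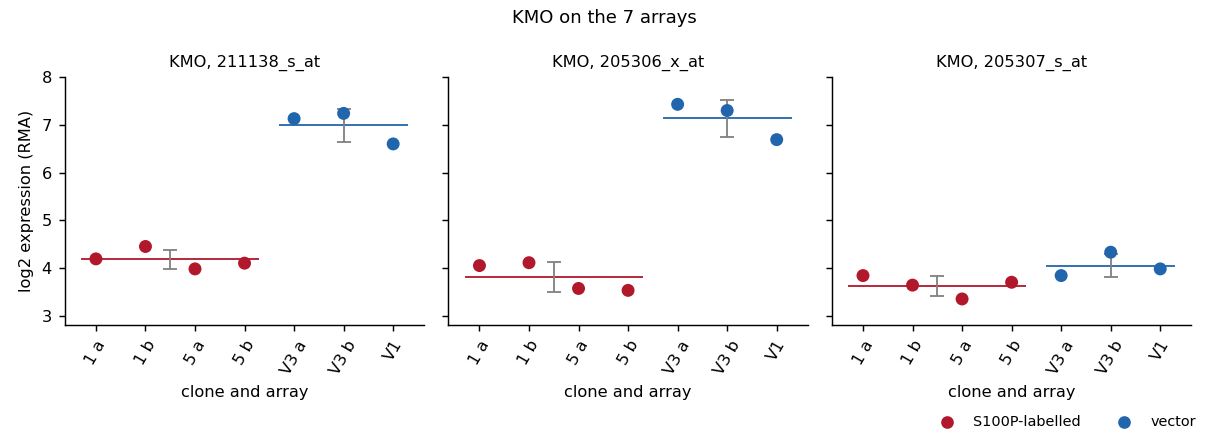
Log2 expression of the 3 KMO probe sets on each of the 7 arrays, with S100P-labelled arrays in red and vector arrays in blue. Lines are arm means and grey bars 1 SD (n = 4 and n = 3). At 211138_s_at and 205306_x_at every vector array lies above every S100P-labelled array, while at 205307_s_at the arms overlap.

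In order, the KMO level was highest in V3, then in V1, clone 1 and clone 5, at 7.19, 6.60, 4.32 and 4.04 for the probe set of highest mean. The steps within an arm were small beside that between the arms, and they were tested in a limma fit of the 4 clones. The error in that fit comes from arrays of the same clone (3 residual degrees of freedom), and the test compares these particular clones, not conditions. V1 is 1 array with no spread of its own, so each test of V1 against V3 assumes that it varies like the arrays of the other clones. At 205306_x_at KMO was lower in V1 than in V3 by a log2 difference of -0.67 (SE 0.11, limma adjusted p = 0.0194, 1 against 2 arrays) and lower in clone 5 than in clone 1 by -0.53 (SE 0.09, limma adjusted p = 0.0393, 2 against 2 arrays). All 4 arrays of clones 5 and 1 read below the median of their array there (3.53 to 4.11), so the size of the latter step is uncertain. At the probe set of highest mean the same steps were -0.59 (95% interval -0.93 to -0.26, adjusted p = 0.0595) and -0.29 (-0.56 to -0.01, adjusted p = 0.305), past the threshold in neither. The first call was kept and the second lost with an intensity trend in eBayes (adjusted p = 0.0267 and 0.0514). Both were lost without any 1 array of clone 1, clone 5 or V3, where adjusted p ran from 0.0988 to 0.408 for clone 5 minus clone 1 and from 0.0623 to 0.11 for V1 minus V3. The fit then has fewer residual degrees of freedom, and 0 of all 54613 probe sets passed for clone 5 minus clone 1, with 4468 to 11537 at an unadjusted p under 0.05. For V1 minus V3, 0 probe sets passed without an array of clone 1 or V3 (8584 to 11733 at an unadjusted p under 0.05) and 909 without an array of clone 5. Each call for clone 5 minus clone 1 given below was lost in the same way.

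No other member had arms that did not overlap. Across the 19 member probe sets 2 had arms that did not overlap, against 11.4% of all probe sets and 14.2% of genes at the probe set of highest mean. The same 2, both of KMO, passed an adjusted p of 0.05 in the fit of arms, against 1.12% of all probe sets, 0.776% higher and 0.342% lower. KMO was chosen on this comparison, so nothing is read from these counts. The median difference over the members was 0.06, against 0.00 over all probe sets.

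The enzymes that open the pathway read low throughout. IDO1, the interferon-inducible dioxygenase, read 4.38, 4.33, 4.04 and 4.48 on the S100P-labelled arrays and 4.35, 4.35 and 4.44 on the vector arrays. Its arms overlapped, with a difference of -0.08 (SE 0.14). IDO2, its relative, read 2.58 to 2.82 and 2.75 to 3.05 in the same order. TDO2, the liver dioxygenase, read 2.85, 2.93, 3.86 and 3.05 against 2.93, 2.78 and 2.93 at the probe set of highest mean (205943_at), where clone 5 array a stood highest. All of these probe sets lay below the median of every array, and those of IDO2 and 231702_at of TDO2 below the lower quartile of every array. The next enzyme, AFMID, read 4.76, 4.88, 5.18 and 4.80 against 4.43, 4.80 and 4.96, close to the array medians and with overlapping arms.

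KYNU, which acts on the product of KMO as well as on kynurenine itself, also read low. At 204385_at it read 4.26, 4.27, 4.27 and 4.39 on the S100P-labelled arrays and 4.22, 4.39 and 4.27 on the vector arrays. Its 4 probe sets spanned at most 0.27 over the 7 arrays, all stayed below the median of every array, and the arm differences lay between -0.04 and 0.06. HAAO, the dioxygenase after KYNU, read 5.41, 5.35, 5.72 and 5.42 against 5.47, 5.18 and 5.42, above the median of every array. Its arm difference was 0.11 (SE 0.14). Neither gene passed the threshold between clones. For HAAO the 95% interval was -0.14 to 0.52 for clone 5 minus clone 1 and -0.31 to 0.50 for V1 minus V3.

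QPRT, which turns quinolinate into the first nucleotide on the way to NAD, varied most of the members between clones within the arms. At 204044_at clone 1 read 6.70 and 6.78, clone 5 7.78 and 8.14, V3 7.12 and 7.30, and V1 6.11. At 242414_at the same arrays read 7.74 and 7.47, 8.40 and 8.44, 7.77 and 7.82, and 6.85. Clone 5 was highest and V1 lowest at both, and V3 and clone 1 lay between them. QPRT was higher in clone 5 than in clone 1, by 2.33-fold at 204044_at (log2 difference 1.22, SE 0.14, limma adjusted p = 0.00989) and 1.76-fold at 242414_at (0.81, SE 0.11, limma adjusted p = 0.0180). It was lower in V1 than in V3, by 2.14-fold (-1.10, SE 0.17, limma adjusted p = 0.0146) and 1.93-fold (-0.95, SE 0.14, limma adjusted p = 0.0119).

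The arms of QPRT overlapped, and the fitted arm differences of 0.57 (SE 0.42) and 0.59 (SE 0.32) turned on which clones were included. For 204044_at they ran from -0.13 to 1.24 over the settings tried. Without any 1 array of clone 1, clone 5 or V3 the QPRT call between clones 5 and 1 was lost, with log2 differences of 1.04 to 1.40 at 204044_at and 0.68 to 0.95 at 242414_at. The call between V1 and V3 at 204044_at held without clone 5 array a or b and was lost without an array of clone 1 or V3. At 242414_at it was lost without any 1 array of clone 1, clone 5 or V3 (adjusted p from 0.0654 to 0.102). Some markers differed in the same direction. KRT8, KRT18 and KRT19 were higher in clone 5 than in clone 1 (1.15, 0.69 and 1.32, limma adjusted p = 0.0110, 0.0157 and 0.00215), and so was CD14 (0.74, adjusted p = 0.0156), the 1 of 7 macrophage and dendritic cell markers that passed, the other 6 lying between -0.18 and 0.31. KRT8 and KRT19 were lower in V1 than in V3 (-0.74 and -0.61, limma adjusted p = 0.0482 and 0.0322). Of 6 hepatocyte markers 0 passed in either comparison, with 1 at an unadjusted p under 0.05 in each. EPCAM lay the other way between clones 5 and 1 (-0.43, limma adjusted p = 0.0791). The part of these markers in the QPRT values was not tested.

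**Figure D2:**
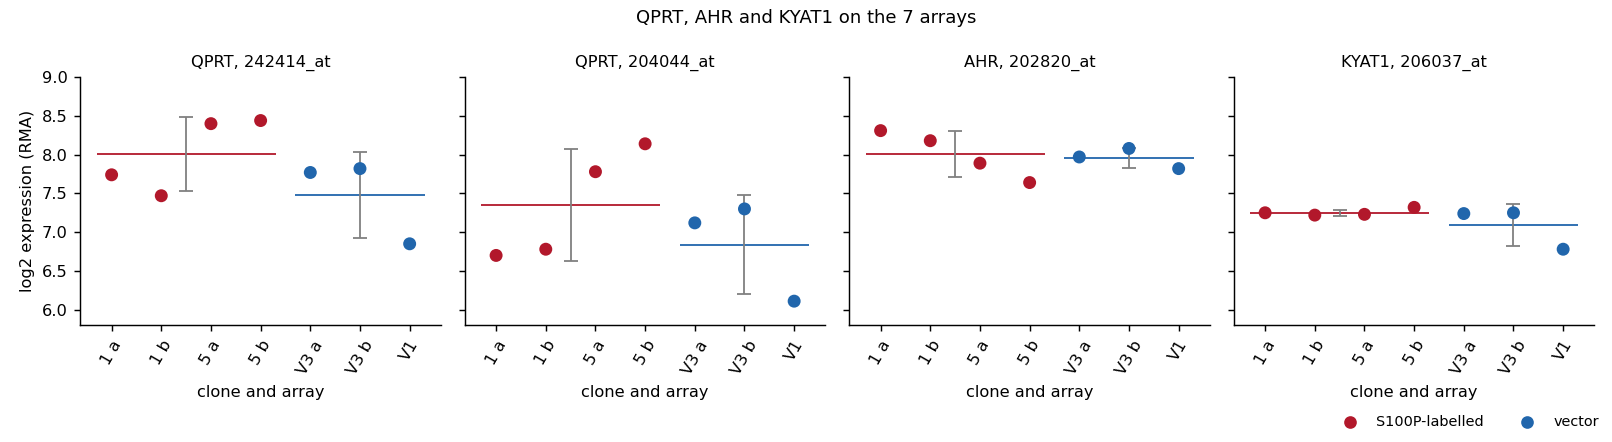
Log2 expression of both QPRT probe sets, of AHR and of KYAT1 at 206037_at on each of the 7 arrays, S100P-labelled in red and vector in blue, with arm means as lines and 1 SD as grey bars (n = 4 and n = 3). QPRT is highest in clone 5 and lowest in V1, AHR spans 7.64 to 8.31, and KYAT1 is level except on V1.

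KYAT1, the transaminase that makes kynurenic acid, was level on 6 arrays. At 206037_at it read 7.25, 7.22, 7.23 and 7.32 on the S100P-labelled arrays, 7.24 and 7.25 on V3 and 6.78 on V1. V1 stood lowest, with a V1 minus V3 difference of -0.46 (95% interval -0.71 to -0.21, limma adjusted p = 0.0541), short of the threshold. The other KYAT1 probe sets lay below the median of every array. AHR, the receptor, read 8.31 and 8.18 (clone 1), 7.89 and 7.64 (clone 5), 7.97 and 8.08 (V3) and 7.82 (V1). Its arms overlapped, with a difference of 0.06 (SE 0.17). Clone 5 lay below clone 1 by -0.48 (95% interval -0.75 to -0.21), again short of the threshold (limma adjusted p = 0.0932). Among probe sets with a mean of at least 5, this AHR difference and that of KYAT1 between V1 and V3 were called. In that setting 11% and 21% of all such probe sets were called in the same comparisons.

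Between clones 5 and 1, 3 of the 19 member probe sets passed, 2 of QPRT higher and 1 of KMO lower in clone 5. The background was 2.19% of all probe sets, 0.584% higher and 1.60% lower. Between V1 and V3, 3 of 19 passed, all lower in V1, again 2 of QPRT and 1 of KMO. There the background was 5.85%, 2.57% higher and 3.28% lower.

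**Figure D3:**
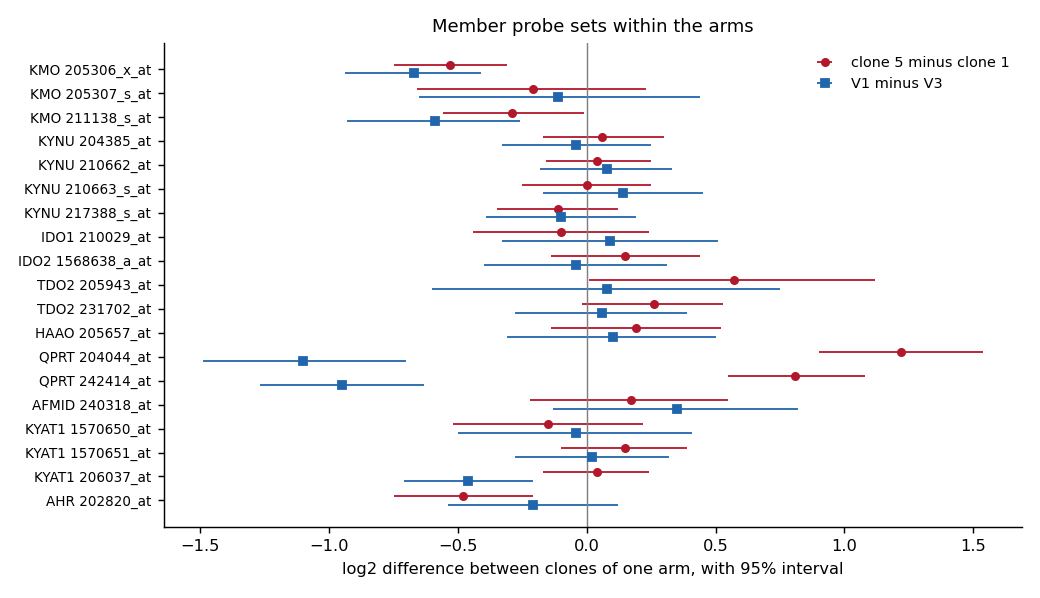
Log2 difference between the clones of an arm for each of the 19 member probe sets, clone 5 minus clone 1 as red circles and V1 minus V3 as blue squares, with 95% intervals from the limma fit of clones. QPRT stands away from 0 to the right for clone 5 minus clone 1 and to the left for V1 minus V3, and KMO at 205306_x_at lies to the left in both.

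Genes next to KMO on chromosome 1 were read as well, 10 protein-coding genes on each side in the order of the RefSeq table (GRCh38.p14). OPN3, a light-sensing opsin also expressed outside the eye, is the next gene. In that table it overlaps KMO and lies on the other strand, and the files do not give probe positions. CHML, which helps attach lipid anchors to Rab GTPases, follows, and its first annotated start has the same window as that of OPN3. OPN3 was known to be lower from earlier results of these data, so its arm values are a description with no test. The test of CHML may not be independent of that known difference.

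OPN3 read 8.15, 8.07, 8.35 and 8.54 on the S100P-labelled arrays, 11.03 and 11.13 on V3 and 9.94 on V1 at 219032_x_at. The arms did not overlap. The log2 difference was -2.36 (SE 0.29), or 5.12-fold lower in the S100P-labelled arm, and at its other probe set (224392_s_at) -2.42 (SE 0.31), or 5.36-fold. Without clone V3 the differences were -1.66 and -1.69. As with KMO, V1 lay below V3, by -1.14 (SE 0.13, limma adjusted p = 0.00521) and -1.21 (SE 0.15, limma adjusted p = 0.00711). At 219032_x_at that call held without either array of clone 5 (adjusted p = 0.0398) and was lost without one of clone 1 or V3 (0.069 to 0.0793).

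CHML read 7.33, 7.23, 6.73 and 6.85 on the S100P-labelled arrays and 8.64, 8.65 and 8.87 on the vector arrays at 226350_at. It was 3.24-fold lower in the S100P-labelled arm (-1.70, SE 0.16, limma adjusted p = 0.00329). It was also lower at 1565951_s_at, by -1.51 (adjusted p = 0.00417), and at 206079_at, by -1.36 (adjusted p = 0.0130), the last lost without V3 array a (adjusted p = 0.0820). With the arrays of each clone averaged first, CHML at 226350_at did not pass (limma adjusted p = 0.252). Its remaining 3 probe sets, which read 2.18 to 3.36, were not called. Between V1 and V3 CHML did not pass, with a difference of 0.23 at 226350_at (95% interval -0.04 to 0.50, limma adjusted p = 0.333).

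FMN2, a formin that nucleates actin filaments, lies on the other side of KMO with 3 genes between them, and it was higher in the S100P-labelled arm. It was named after its values were seen, since its probe set of highest mean (230946_at) read 6.01 to 6.11 on every array. At 1555471_a_at FMN2 read 7.22 and 7.15 (clone 1), 5.88 and 5.79 (clone 5) and 3.77, 3.81 and 3.66 on the vector arrays. The difference was 2.77 (SE 0.36, limma adjusted p = 0.0134), or 6.82-fold higher, and at 223618_at it was 2.72 (SE 0.31, limma adjusted p = 0.00869). The vector values lay below the array medians, so the size of these folds is uncertain. Without V3 array a neither passed (adjusted p = 0.0703 and 0.0528), without clone V3 neither did (0.101 and 0.0557), and without V3 array b the first did not (0.0541). FMN2 was also lower in clone 5 than in clone 1 at both, by -1.35 (adjusted p = 0.00147) and -0.99 (adjusted p = 0.04).

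Of the 20 neighbours 15 were measured, and the others were not analysed here. At the probe set of highest mean CHML passed and was lower, with a background of 1.55% of all genes (0.526% lower). OPN3, given without a test, was past the same threshold and also lower. Since OPN3 was known beforehand and CHML has the same window before its start, nothing is read from that count of 2 of 15. The remaining 12 measured genes, at 28 probe sets, had arm differences between -0.75 and 0.17 and none passed. The lowest was EXO1, an exonuclease of DNA repair, whose arms did not overlap (-0.75, SE 0.21, limma adjusted p = 0.165). WDR64, between CHML and EXO1, read 2.54 to 3.03 on all arrays.

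**Figure D4:**
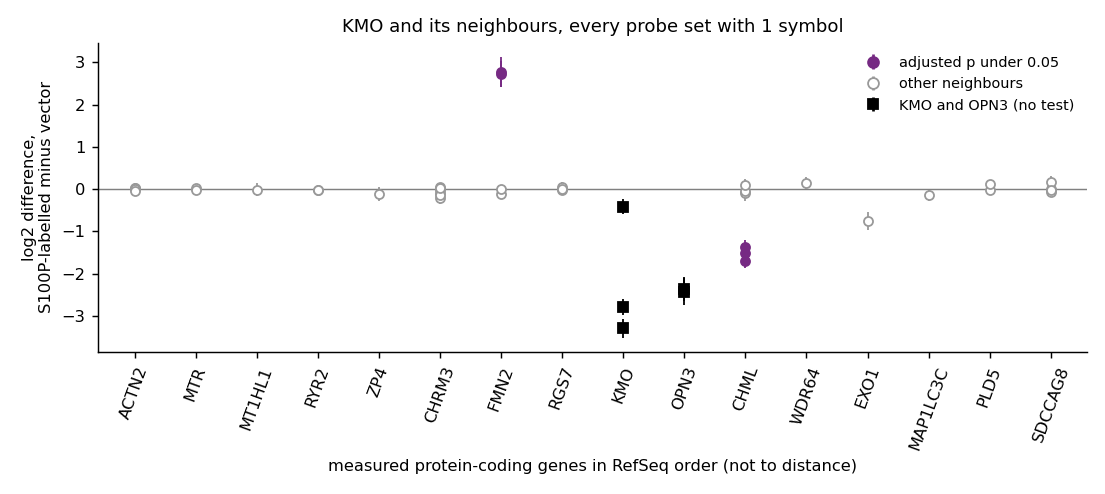
Fitted log2 difference, S100P-labelled minus vector, with SE, for KMO (black squares) and each probe set of its measured neighbours in RefSeq order, where filled purple circles passed a limma adjusted p of 0.05. OPN3, also a black square, is likewise given without a test. Genes that were not measured are left out of the axis. The 2 OPN3 probe sets, 3 of 6 for CHML and 2 of 3 for KMO lie well below 0, 2 of 4 for FMN2 lie well above it, EXO1 is at -0.75, and the rest are near 0.

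Genes whose profile over the 7 arrays was most like that of KMO were found by the mean absolute difference after each profile was centred on its own mean. Over 19774 genes the median of that measure was 1.38. The closest were the morphogen gene SHH (0.11), TIAM1 (0.177), PTX3 (0.185), NTN1 (0.222), OPN3 (0.278), PPP1R9A (0.296), IFIT3 (0.301) and CHN1 (0.307). SHH read 5.76 and 5.89 (clone 1), 5.49 and 5.32 (clone 5), 8.64 and 8.59 (V3) and 7.87 (V1), so the 4 clones stood in the same order as for KMO. By clone mean they stood in that order for NTN1, PPP1R9A, IFIT3 and CHN1 as well, and not for TIAM1, PTX3 and OPN3. CHML was 22nd by the mean absolute difference (0.553). The arrays come from 4 clones and are not independent, so this is a description.

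Other genes of tryptophan, kynurenine and NAD biology were read at the probe set of highest mean, 59 of 64 listed. The others were not analysed here. Between the arms 1 of 59 passed, NMNAT1, and 6 had an unadjusted p under 0.05, with a background of 1.55% of all genes past the adjusted threshold (1.03% higher and 0.526% lower). The list's median difference was 0.04, against 0.00 over all genes. NMNAT1, which makes NAD in the nucleus, was higher. It read 7.03 and 7.02 (clone 1), 6.57 and 6.53 (clone 5), 5.59 and 5.84 (V3) and 5.37 (V1), so the arms did not overlap. The difference was 1.21 (SE 0.17, limma adjusted p = 0.0189), or 2.31-fold. It did not pass without any 1 of the S100P-labelled arrays (adjusted p from 0.0508 to 0.0638) or without V3 array a (0.0952). With the arrays of each clone averaged first it did not pass either (limma adjusted p = 0.374). Nor did it pass without clone V3 (0.0581) or as the mean of its probe sets (0.0523), and its other probe sets, with 0.53 and 0.32, were not called.

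Transporters of tryptophan and kynurenine held 8 measured genes and none that passed between the arms (1 at an unadjusted p under 0.05). SLC7A11, an exchanger of cystine and glutamate, read 9.31 and 9.24 (clone 1), 8.09 and 8.41 (clone 5), 8.46 and 8.45 (V3) and 7.41 (V1). It was lower in clone 5 than in clone 1 (-1.03, limma adjusted p = 0.0110) and lower in V1 than in V3 (-1.04, limma adjusted p = 0.0114). SLC3A2, the heavy chain that it shares with the tryptophan carrier SLC7A5, was lower in clone 5 than in clone 1 (-0.58, limma adjusted p = 0.0420). The arm differences of largest size were 0.72 for SLC7A11 and -0.41 for SLC36A4.

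Interferon gamma signalling, which drives IDO1 in many cells, held 9 measured genes. None passed between the arms (1 at an unadjusted p under 0.05), where IFNGR1 differed by 0.59 and IRF1 by -0.51. Between clones 5 and 1, 3 of 9 were lower in clone 5, with a background of 3.02% of genes (2.35% lower). These were SOCS3, a feedback inhibitor (-0.89, limma adjusted p = 0.0149), the transcription factor IRF1 (-0.87, limma adjusted p = 0.0136) and the receptor chain IFNGR1 (-0.62, limma adjusted p = 0.0228). Between V1 and V3, 3 of 9 were lower in V1, with a background of 7.72% (5.08% lower). These were IRF9 (-0.85, adjusted p = 0.0125), SOCS3 (-0.77, adjusted p = 0.0263) and IFNGR1 (-0.51, limma adjusted p = 0.0455). As means of all their probe sets, SOCS3 (adjusted p = 0.191 and 0.555) and IFNGR1 (0.151 and 0.118) passed in neither. IDO1 itself differed by -0.10 (95% interval -0.44 to 0.24) and 0.09 (-0.33 to 0.51) in the same comparisons.

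NAD synthesis held 10 genes besides QPRT. None differed between clones 5 and 1 past the threshold (2 at an unadjusted p under 0.05), where NMNAT1 differed by -0.47 and NMNAT2 by 0.29. NMRK1, which phosphorylates nicotinamide riboside, was lower in V1 than in V3 (-0.82, limma adjusted p = 0.0146), and so was NADSYN1, the last enzyme of the route through QPRT (-0.68, limma adjusted p = 0.0296). Neither passed as the mean of its probe sets (adjusted p = 0.0963 and 0.175). Of 11 measured AHR partners and targets none passed between the arms (2 at an unadjusted p under 0.05). The target gene AHRR differed by 0.62 and TIPARP by -0.52. Between clones 5 and 1 none passed at the probe set of highest mean (3 at an unadjusted p under 0.05), with NQO1 at 0.57 and TIPARP at -0.53. At another NQO1 probe set the difference passed (0.51, limma adjusted p = 0.0361), and at the last it did not (0.49, adjusted p = 0.161). NQO1 also passed with quantile normalization, with an intensity trend and among probe sets with a mean of at least 5. TIPARP passed in the last of these settings as well. NQO1 did not pass with the array letter as a block or as the mean of its probe sets. CYP1B1, another target, was higher in V1 than in V3 at its probe set of highest mean (0.47, limma adjusted p = 0.0491) and at 3 others, by 0.70 to 1.36. With quantile normalization the first of these did not pass (adjusted p = 0.0685).

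The remaining 3 lists held no gene past the threshold in any of the 3 comparisons. Other fates of tryptophan had 11 measured genes, with IL4I1 at -0.26 and WARS1 at 0.22 between the arms. Side branches of kynurenine had 6, with GOT2 at -0.19 and GCDH at 0.17. Supply of FAD, the cofactor of KMO, had 4, with FLAD1 at 0.13 and RFK at -0.10. In limma an unadjusted p under 0.05 was reached by 0 of their genes between the arms, by 1 gene of each list between clones 5 and 1, and by 2, 0 and 0 genes between V1 and V3.

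In all, 5 of 59 pathway genes passed between clones 5 and 1, all lower in clone 5, with a background of 3.02% of genes (0.673% higher and 2.35% lower). Between V1 and V3 7 of 59 passed, 6 lower and 1 higher in V1, with a background of 7.72% (2.64% higher and 5.08% lower). RNA quality varied over the same clones. The 3' minus 5' log2 difference of the ACTB controls was 0.53 and 0.44 (clone 1), 0.29 and 0.27 (clone 5), 0.28 and 0.32 (V3) and 0.18 (V1). SLC7A11, SOCS3 and IFNGR1 were likewise highest on clone 1 and lowest on V1. By clone mean so were SLC3A2, NMRK1 and NMNAT1, and FMN2 at 1555471_a_at and 223618_at. The part of RNA quality in any of these genes was not tested. QPRT was highest on clone 5 and KMO on V3. The same difference for GAPDH was 0.055 to 0.082 on the S100P-labelled arrays, 0.092 and 0.139 on V3 and 0.007 on V1. V1 was thus lowest by both controls, as for QPRT, and V3 highest by GAPDH, as for KMO. The other clones did not stand in the order of the controls. KMO read 6.60 on V1, above clones 1 and 5 (4.32 and 4.04), and clone 5 was neither highest nor lowest by either control. The part of RNA quality in the QPRT and KMO values was not tested.

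**Figure D5:**
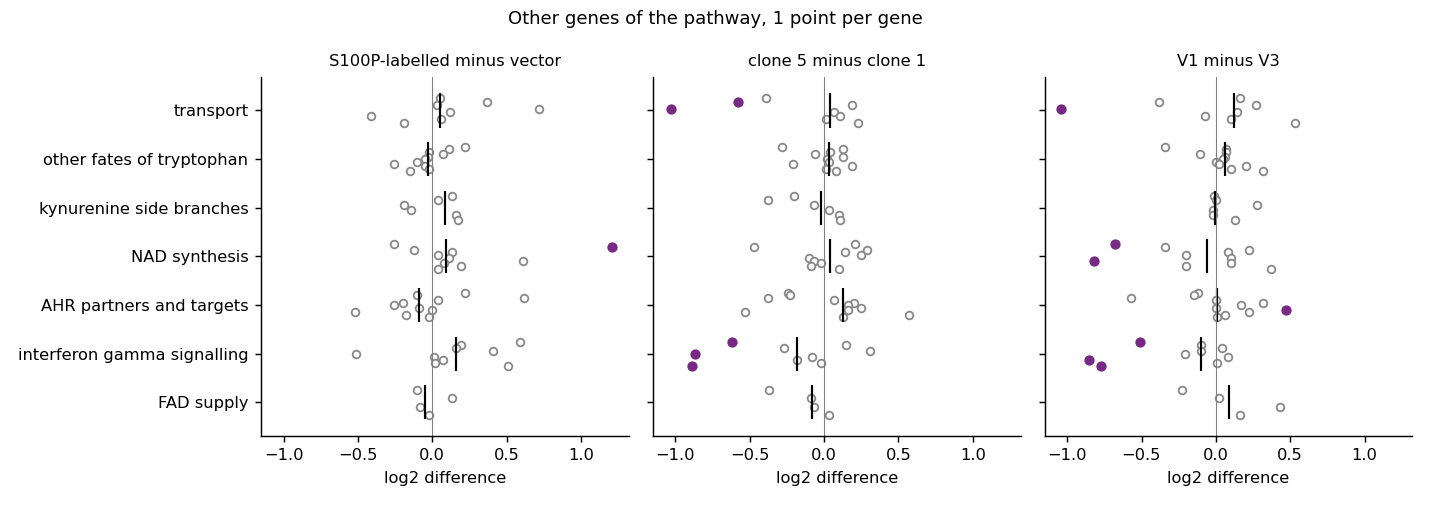
Log2 differences of the 59 measured pathway genes by list, 1 point per gene at its probe set of highest mean, in the 3 comparisons on a shared axis. Filled purple points passed a limma adjusted p of 0.05 and black bars are list medians. Between the arms NMNAT1 alone is filled, and between clones most filled points lie below 0.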

How the data were processed

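Log2 expression values of 7 arrays were deposited by the authors after RMA, per the submitters' processing notes. The sources used here give neither a version of RMA nor the set of arrays it was run on. The log2 scale was read from the range of the values, 1.79 to 14.36. The table held 54675 probe sets, of which 62 controls were left out of the tests and 41091 had 1 gene symbol in the platform annotation. A gene was read at its probe set of highest mean.

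Models were fitted in R 4.3.3 with limma 3.58.1, and statmod 1.5.0 for the block. Arms were fitted with the clone as a random block (consensus correlation 0.287), and clones in a fit of their own with 3 residual degrees of freedom. All p-values are two-sided and adjusted by Benjamini-Hochberg over 54613 probe sets, with 0.05 as the threshold. Both fits were tested on simulated data. Tables and figures used Python 3.11.15, pandas 2.3.3 and matplotlib 3.10.9. Promoters are RefSeq entries of GRCh38.p14. The promoter table held 8 of the 10 members.

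Named genes were the members, up to 4 genes per list and comparison that passed, else the 2 of largest difference, and the 8 genes most like KMO. The members, the lists and the TATAAA search were chosen with earlier results or sequences of these data known. Alternatives were each array or clone left out, no clone block, clone means, quantile normalization, a mean of at least 5, an intensity trend, the array letter as a block, and the mean of a gene's probe sets.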

Additional observations from a re-analysis of the deposited data

Results flagged for a closer look

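The KYNU value at 204385_at on clone 5 array b, 4.39, stood apart from the other 3 S100P-labelled arrays, whose median was 4.27, with a gap of 0.945 of the range of those 4 arrays to the nearest. That range was only 0.13 on the log2 scale, and chance sets about 1 in 20 groups of 4 apart in this way. No other member probe set had such an array among the 4 S100P-labelled arrays, and groups of 3, such as the vector arrays, were not examined in this way.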

How the results depend on the processing

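The KMO difference between the arms kept its sign in all 16 alternatives, from -3.02 to -2.16. It moved past the spread between arrays without clone V3 (-2.42) and as the mean of its 3 probe sets (-2.16), which averages in 205307_s_at. Without V1 it was -3.01. With the arrays of each clone averaged first, limma called 0 member probe sets, 0 pathway genes and 0 neighbours between the arms (3, 4 and 3 at an unadjusted p under 0.05), and 8 probe sets of all. Called pathway genes between the arms numbered 0 to 1 with 1 array left out, 2 without clone 1, 2 without clone 5 and 0 by the mean of a gene's probe sets, where 8 had an unadjusted p under 0.05. Called neighbours numbered 1 to 2 with 1 array left out. Between clones 5 and 1, each call was lost without any 1 array of clone 1, clone 5 or V3. Without V1, which has no spread of its own in that fit, 3 member probe sets and 5 pathway genes were called, as reported. Among probe sets with a mean of at least 5, 4 of 7 member probe sets were called (QPRT, KMO and AHR) and 8 of 40 pathway genes. The background there was 11% of all such probe sets. By the mean of probe sets 3 of 59 pathway genes were called, with a background of 2.09%. Between V1 and V3, with 1 array left out, 0 to 1 member probe sets and 0 to 1 pathway genes were called. With a mean of at least 5, 5 of 7 member probe sets were called (QPRT, KMO and KYAT1), with a background of 21%. By the mean of probe sets 4 of 59 pathway genes were called, with a background of 4.74%. With the array letter as a replicate block the member count between clones 5 and 1 was 3 and the pathway count 5, as reported. No single difference reported as passed changed sign in these alternatives. Some that did not pass did, such as the HAAO difference between V1 and V3 (-0.05 to 0.24) and that of IDO1 between clones 5 and 1 (-0.32 to 0.12). At 7 arrays of 4 clones, 2 in each arm, the number of clones limits the comparison of the arms. The number of arrays limits that of the clones.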
